A study of Mus musculus with 12 samples.

Results

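The genes described here are the 4 receptors for fibroblast growth factors (FGFs), Fgfr1, Fgfr2, Fgfr3 and Fgfr4, and 6 genes that FGF signalling through the kinase ERK turns on, Spry1, Spry2, Spry4, Dusp6, Etv4 and Etv5. They were chosen by name, with earlier results of these data known, as every probe that the table of expression values gives to 1 of these 10 genes. This gave 20 probes, 9 of receptors and 11 of ERK output genes, among 30344 probes with 19060 gene names. A test was possible for 16 of them, in 8 genes, each with a signal above background on at least 3 of the 12 arrays (detection p under 0.05).

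FGFs bind receptor tyrosine kinases at the cell surface, and the bound receptors pass the signal through RAS, RAF and MEK to ERK, which enters the nucleus and changes transcription. Etv4 and Etv5 encode ETS-family transcription factors that act downstream of ERK, Dusp6 encodes a phosphatase that inactivates ERK, and the Sprouty genes Spry1, Spry2 and Spry4 encode proteins that restrain the signal upstream of it, so several outputs of the pathway also limit it. In the mouse gastrula, Fgf8 and Fgfr1 are needed for cells to move away from the primitive streak, the posterior site at which mesoderm forms.

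The embryos were mice at E7.75 (days of embryonic development), between the early bud and early head-fold stages, and their epiblast was dissected into an anterior and a posterior part. Lhx1epiCKO embryos were Lhx1-/flox; Meox2+/Cre, so they carried a null and a conditional allele of Lhx1, which encodes a LIM-homeodomain factor needed for head formation. Control embryos were Lhx1+/flox; Meox2+/Cre, so all embryos carried Meox2-Cre, which acts in the epiblast, and a conditional Lhx1 allele. Each genotype gave an anterior and a posterior group, each of these 4 groups with 3 Illumina arrays labelled as biological replicates, and each array held RNA pooled from 5 embryo parts. The comparisons ask whether the genes differ between the embryo parts and whether they differ with the loss of epiblast Lhx1. The conditional allele of the controls was exposed to Cre too, so the comparison is with epiblast heterozygous for Lhx1. The null allele of Lhx1epiCKO embryos was also present outside the epiblast.

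Values are the authors' normalized log2 signals, and a difference is Lhx1epiCKO minus control or anterior minus posterior, with its standard error. A difference passed the test at a Benjamini-Hochberg adjusted p under 0.05 over all 17041 probes tested, in a limma fit of all 12 arrays. The arrays detected from 14243 to 16238 probes, and the number of arrays limits the precision. The labels name embryonic head as the tissue of all samples, including the posterior ones. Anterior neuroectoderm markers (7 of 12 tested) summed to between 12.46 and 12.58 on anterior control arrays and between 10.19 and 10.71 on posterior control arrays (log2 of the summed level), while primitive streak and nascent mesoderm markers (12 of 14 tested) summed to between 11.92 and 12.16 and between 14.59 and 15.04. Markers of extraembryonic visceral endoderm, which is not epiblast, summed to between 15.20 and 15.48 on all arrays of both control groups. In anterior samples Lhx1 read 8.13, 8.25 and 8.44 in controls, against 6.84, 6.65 and 7.09 in Lhx1epiCKO embryos, a difference of -1.41 ± 0.32 without overlap (adjusted p = 0.344). In posterior samples it read 8.54, 6.90 and 8.35, against 6.85, 7.18 and 7.30, so the array labelled posterior control replicate 2 went against its label. Posterior Lhx1epiCKO replicate 3 was unlike its group, with 779 probes that lay over 1 log2 unit away from the mean of its group's other arrays. Arrays of the other groups had 0 to 35 such probes. Replicates 1 and 2 of its group had 258 and 279, but the means they were compared with include replicate 3. Several results are given with and without posterior Lhx1epiCKO replicate 3. Fits without each single array, and without both of these posterior arrays, were among the alternative settings.

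The promoters of 3 members with regional calls are shown because ETS factors such as those encoded by Etv4 and Etv5 recognise a GGAA core. Each is the window from 250 bases before to 50 bases after a gene start in RefSeq on build GRCm38.p6, read along the gene's strand, with GGAA and its reverse complement TTCC in capitals. The Dusp6 window is chr10:99262981-99263280 on the plus strand, the Etv5 window is chr16:22438319-22438618 on the minus strand, and the Fgfr2 window is chr7:130266759-130267058 on the minus strand.
Dusp6: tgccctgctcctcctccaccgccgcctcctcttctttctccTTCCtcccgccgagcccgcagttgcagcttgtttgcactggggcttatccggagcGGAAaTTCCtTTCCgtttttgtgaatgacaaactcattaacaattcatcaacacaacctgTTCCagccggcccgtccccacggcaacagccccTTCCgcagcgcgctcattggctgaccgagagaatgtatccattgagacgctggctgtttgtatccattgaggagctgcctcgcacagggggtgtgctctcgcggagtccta
Etv5: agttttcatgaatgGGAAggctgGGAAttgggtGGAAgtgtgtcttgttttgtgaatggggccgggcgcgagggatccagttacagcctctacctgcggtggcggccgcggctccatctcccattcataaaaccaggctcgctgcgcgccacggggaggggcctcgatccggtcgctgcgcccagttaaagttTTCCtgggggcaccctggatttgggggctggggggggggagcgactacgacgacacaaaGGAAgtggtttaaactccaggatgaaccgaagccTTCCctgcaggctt
Fgfr2: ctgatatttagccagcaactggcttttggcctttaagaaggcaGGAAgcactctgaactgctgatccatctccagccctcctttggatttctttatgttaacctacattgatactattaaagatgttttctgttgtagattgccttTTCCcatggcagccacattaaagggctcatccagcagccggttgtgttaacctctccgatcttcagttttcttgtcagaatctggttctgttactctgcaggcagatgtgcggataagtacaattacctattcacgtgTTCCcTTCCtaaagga
The Dusp6 and Etv5 windows each held 6 cores and the Fgfr2 window 4, counted on both strands. Of all 32851 RefSeq promoter windows of this length, 96.0% held at least 1 core, 15.7% held 6 or more and 46.3% held 4 or more. The longer motif CCGGAA, which contains the core, was in 14.9% of all windows and in none of these 3. A second Etv5 start, at chr16:22439521-22439820 on the minus strand, had no GGAA core in its window. GC content was 57.3% in the Dusp6 window, 60.0% in the Etv5 window shown and 43.7% in the Fgfr2 window, against a median of 52.7% over all windows. Of the 10 genes, 7 had a window that was used here. These are matches of letters and not measured binding.

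The first question is where in the embryo the genes were expressed. In control embryos the ERK output genes Etv4, Dusp6 and Etv5 each had a probe with a lower signal in the anterior than in the posterior part, and the receptor Fgfr2 had the opposite pattern on 2 probes. By the brightest tested probe of each gene, 2 of 8 genes passed the test, Etv4 and Fgfr2, and by any probe 4 genes did. Of the 16 member probes 5 passed, against 3.01% of all probes tested. In the anterior part 2 were higher, against 1.36% of all probes, and 3 lower, against 1.65%. With posterior Lhx1epiCKO replicate 3 left out of the fit, where it enters this contrast only through the shared spread, 5 of 8 genes passed on the brightest probe, the others being Fgfr1, Dusp6 and Etv5. In pooled tissue, fewer cells with a transcript and less RNA per cell cannot be told apart.

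Etv4 (probe ILMN_2778111), the ETS factor gene, had the largest regional difference of the members in both genotypes. On control arrays it read 7.81, 8.32 and 8.37 in the anterior part and 9.79, 9.70 and 9.39 in the posterior part. All 3 anterior arrays lay below all 3 posterior arrays. The difference was -1.46 ± 0.19 (log2, SE, n = 3 arrays a group), a 2.74-fold lower anterior level (limma, adjusted p = 0.000598). On Lhx1epiCKO arrays Etv4 read 8.17, 8.04 and 8.72 in the anterior part and 9.73, 9.64 and 9.83 in the posterior part. The groups again did not overlap, and the difference was -1.42 ± 0.19 (limma, adjusted p = 0.00172). From high to low, the group means were 9.73 ± 0.10 (SD, n = 3) in posterior Lhx1epiCKO, 9.63 ± 0.21 in posterior control, 8.31 ± 0.36 in anterior Lhx1epiCKO and 8.17 ± 0.31 in anterior control, and neighbours within a region did not differ beyond their spread.

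Dusp6, which encodes the ERK phosphatase, has 3 probes. On control arrays the middle probe by brightness (ILMN_1248537) read 7.98, 7.96 and 8.14 in the anterior part and 8.76, 8.97 and 8.92 in the posterior part. On Lhx1epiCKO arrays it read 7.94, 7.91 and 8.30, and 8.85, 8.73 and 9.02. The regions did not overlap in either genotype, and the levels of the genotypes interleaved within each region. The anterior level fell short of the posterior by 0.86 on the log2 scale in controls, 1.81-fold (SE 0.13, limma, adjusted p = 0.0017), and by 0.82 in Lhx1epiCKO embryos (adjusted p = 0.00473). The second of these calls was lost when only the 6 Lhx1epiCKO arrays were fitted (Dusp6 -0.82, adjusted p = 0.0858).

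The brightest Dusp6 probe (ILMN_2925711) gave the same order in controls with more spread. It read 10.78, 10.57 and 10.96 on anterior and 11.70, 11.60 and 12.09 on posterior control arrays, a difference of -1.02 ± 0.32 with no overlap (limma, adjusted p = 0.142). On Lhx1epiCKO arrays it read 10.73, 10.61 and 11.20 in the anterior part and 11.78, 11.36 and 10.11 in the posterior part. The lowest of these values was on the array labelled posterior Lhx1epiCKO replicate 3, where the middle Dusp6 probe was the highest of its group at 9.02. The Lhx1epiCKO regional difference on the brightest Dusp6 probe was -0.24 ± 0.32 with that array (adjusted p = 0.797) and -0.72 without it (adjusted p = 0.0591). Without it the shared spread was smaller too, and the control Dusp6 difference of -1.02 passed (adjusted p = 0.00117). The dimmest Dusp6 probe (ILMN_2701321), detected on 10 arrays, had a control difference of -0.56 ± 0.16 (adjusted p = 0.0957).

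Etv5, the other ETS factor gene, also has 3 probes, and 1 passed in controls. That probe (ILMN_2938047) read 8.20, 8.32 and 8.34 on anterior and 8.81, 9.33 and 9.04 on posterior control arrays. The groups did not overlap, and the difference was -0.77 ± 0.17, 1.71-fold lower in the anterior part (limma, adjusted p = 0.0231). On Lhx1epiCKO arrays the probe read 8.14, 8.30 and 8.81 in the anterior part and 8.98, 9.0 and 8.79 in the posterior part, where the regions overlapped by 1 array each way and the difference was -0.50 ± 0.17 (adjusted p = 0.231). The control call for this Etv5 probe was lost without anterior control replicate 1, 2 or 3 and without posterior control replicate 2 or 3, with adjusted p from 0.0703 to 0.114.

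The brightest Etv5 probe (ILMN_1235329) read 8.66, 8.90 and 8.98 on anterior and 9.39, 9.56 and 9.49 on posterior control arrays, a difference of -0.63 ± 0.23 with no overlap (limma, adjusted p = 0.214). On Lhx1epiCKO arrays it read 8.78, 8.76 and 9.36 in the anterior part and 9.28, 9.56 and 10.31 in the posterior part, a difference of -0.75 ± 0.23 (adjusted p = 0.18). The 10.31 is again from the array labelled posterior Lhx1epiCKO replicate 3, and the Etv5 difference was -0.45 without it (adjusted p = 0.228). The dimmest Etv5 probe (ILMN_1216714), which the platform annotation lists under an older name of the gene, differed by -0.36 ± 0.19 in controls and -0.39 ± 0.19 in Lhx1epiCKO embryos, with adjusted p of 0.471 and 0.444.

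Of the 3 Sprouty members, Spry4 alone had a probe above background on all 12 arrays. It read 7.31, 7.0 and 7.30 on anterior and 7.39, 7.58 and 7.84 on posterior control arrays. These groups did not overlap, yet the difference of -0.40 ± 0.19 did not pass (limma, adjusted p = 0.41). On Lhx1epiCKO arrays Spry4 read 7.10, 7.09 and 7.43 in the anterior part and 7.77, 7.81 and 7.08 in the posterior part, with a difference of -0.35 ± 0.19 (adjusted p = 0.487). Its lowest posterior value was again on replicate 3, and without that array the Spry4 difference was -0.58 (adjusted p = 0.0518).

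Spry1 and Spry2 could not be tested. Both Spry1 probes carry that name in the deposited values, while the platform annotation gives no gene symbol for them. The brighter Spry1 probe (ILMN_1230525) was detected on 2 arrays, at 6.79 on anterior control replicate 2 and at 7.14 on posterior Lhx1epiCKO replicate 2, and its group means lay between 6.64 and 6.86. The other Spry1 probe and the only Spry2 probe were detected on no array, with group means from 6.47 to 6.62 for the former and from 6.47 to 6.55 for the latter. The medians of all probes were between 6.81 and 6.83 on the 12 arrays, so these signals say only that the transcripts were not measured above background.

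Taking the ERK output genes as a group, all 8 tested probes, in 4 genes, read lower in the anterior than in the posterior part on the mean of the control arrays, from -1.46 to -0.36, with a median of -0.70 against 0.02 over all probes tested. All 8 also had non-overlapping control groups, where 9.33% of all tested probes were lower in the anterior part without overlap. In Lhx1epiCKO embryos the 8 mean differences were negative as well, from -1.42 to -0.24, with a median of -0.45. There 2 of the 8 had groups that did not overlap, against 7.37% of all probes. Without posterior Lhx1epiCKO replicate 3 it was 5 of the 8, against 13.1%, the others being the brightest Dusp6 probe, Spry4 and Etv5 probe ILMN_2938047. With all arrays 2 passed the test, in Etv4 and Dusp6.

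**Figure D1:**
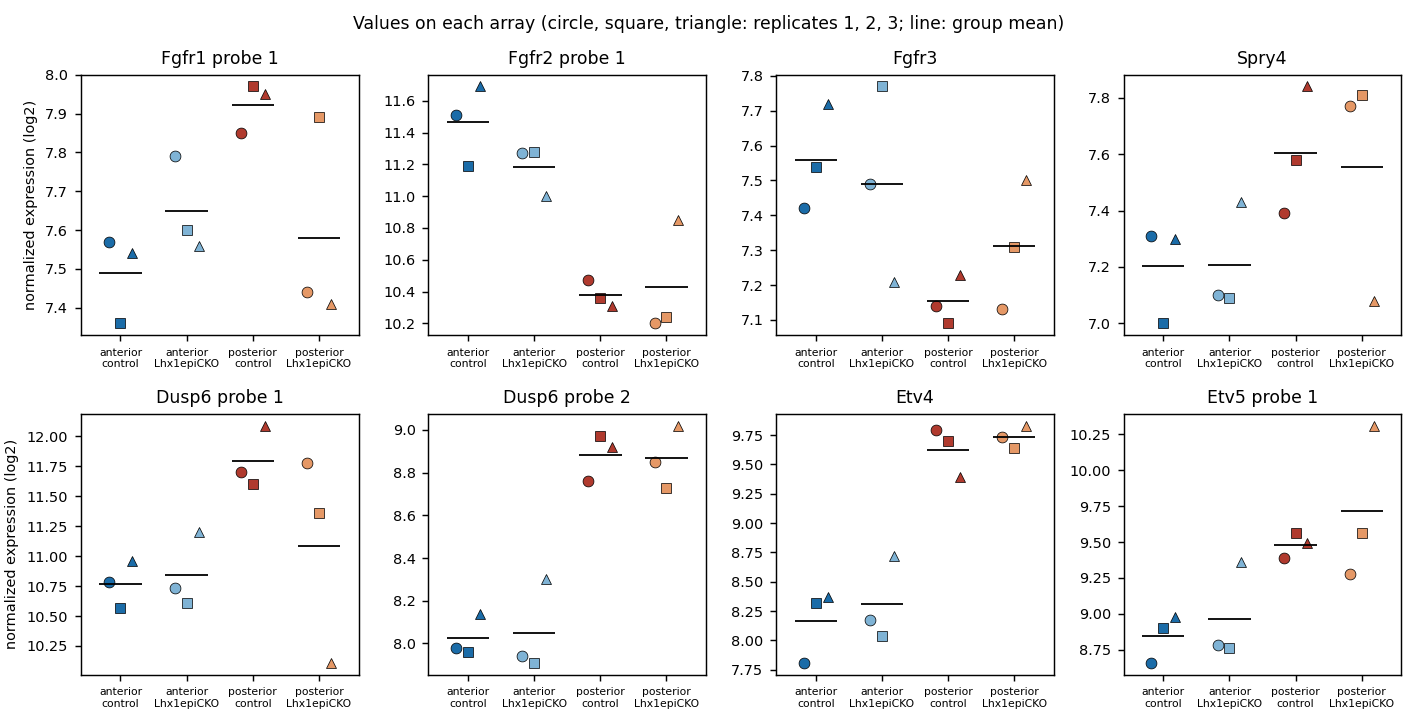
Normalized log2 signal (vertical axis, own range in each panel, not starting at 0) of 8 member probes on each array, by group (horizontal axis); circles, squares and triangles are replicates 1, 2 and 3 and lines are group means, with probes numbered from the brightest. Etv4 and the Dusp6 and Etv5 probes stand higher on posterior control than on anterior control arrays, Fgfr2 stands lower, and the triangle of posterior Lhx1epiCKO departs from its group for Dusp6 probe 1 at 10.11, Etv5 probe 1 at 10.31 and Spry4 at 7.08.

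Among the receptors, Fgfr2 was the one with regional calls. Its brightest probe (ILMN_1225071) read 11.51, 11.19 and 11.69 on anterior and 10.47, 10.36 and 10.31 on posterior control arrays. Every anterior array lay above every posterior array. The difference was 1.08 ± 0.17, a 2.12-fold higher anterior level (limma, adjusted p = 0.00326). On Lhx1epiCKO arrays this Fgfr2 probe read 11.27 and 11.28 in anterior replicates 1 and 2 and -0.28 from their mean in replicate 3, and it read 10.20, 10.24 and 10.85 in the posterior part. The regions did not overlap there either, but the difference of 0.76 ± 0.17 missed the threshold (adjusted p = 0.0577). The value of 10.85 was on the array labelled posterior Lhx1epiCKO replicate 3, and without it the Fgfr2 difference was 0.96 (adjusted p = 0.000784).

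A second Fgfr2 probe (ILMN_2609887) read 7.82, 7.71 and 7.83 on anterior and 7.09, 7.05 and 7.07 on posterior control arrays. Its control difference was 0.71 ± 0.12 (limma, adjusted p = 0.0045). On Lhx1epiCKO arrays it read 7.65, 7.82 and 7.44 in the anterior part and 6.95, 7.20 and 6.84 in the posterior part, a difference of 0.64 ± 0.12 with no overlap (adjusted p = 0.017). That Lhx1epiCKO call of Fgfr2 was lost without anterior Lhx1epiCKO replicate 1 (adjusted p = 0.103) or replicate 2 (adjusted p = 0.107) and in a fit of the 6 Lhx1epiCKO arrays alone (adjusted p = 0.212). The other 2 Fgfr2 probes had group means between 6.52 and 6.89, were detected on 6 and 3 arrays, and had regional differences from -0.22 to 0.16 with no call. From high to low, the group means on the brightest probe were 11.46 ± 0.25 (SD, n = 3) in anterior control, 11.18 ± 0.16 in anterior Lhx1epiCKO, 10.43 ± 0.36 in posterior Lhx1epiCKO and 10.38 ± 0.08 in posterior control. Only the step between anterior Lhx1epiCKO and posterior Lhx1epiCKO was free of overlap.

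Fgfr1, the receptor needed in the mouse gastrula, read 7.57, 7.36 and 7.54 on anterior and 7.85, 7.97 and 7.95 on posterior control arrays on its brighter probe (ILMN_2727068). This order, lower in the anterior part without overlap, was that of the ERK output genes and not of Fgfr2. The difference was -0.43 ± 0.13 (limma, adjusted p = 0.122) and passed when posterior Lhx1epiCKO replicate 2 (adjusted p = 0.0341) or replicate 3 (adjusted p = 0.0466) was left out of the Fgfr1 fit, with array weights (adjusted p = 0.0218) and with only the control arrays fitted (adjusted p = 0.0352). On Lhx1epiCKO arrays the probe read 7.79, 7.60 and 7.56 in the anterior part and 7.44, 7.89 and 7.41 in the posterior part, a difference of 0.07 ± 0.13 (adjusted p = 0.859). The dimmer Fgfr1 probe (ILMN_2675581), detected on 6 arrays, had a control difference of 0.12 ± 0.13 and so did not show that order.

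Fgfr3, a receptor known for limiting bone growth, read 7.42, 7.54 and 7.72 on anterior and 7.14, 7.09 and 7.23 on posterior control arrays, without overlap. The difference was 0.41 ± 0.14 (limma, adjusted p = 0.2), and in Lhx1epiCKO embryos it was 0.18 ± 0.14 with overlap (adjusted p = 0.634). Its second probe was detected on 2 arrays and was not tested. The only Fgfr4 probe was detected on 3 arrays at 6.79, 6.81 and 6.91, had group means between 6.68 and 6.76, and differed by 0.07 ± 0.11 between the control regions.

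Set side by side by their brightest tested probes, the 4 receptors had a median regional difference of 0.24 in controls and 0.12 in Lhx1epiCKO embryos, while the 4 ERK output genes had medians of -0.83 and -0.55. Of the 8 receptor probes, 3 were higher and 1 was lower in the anterior part without overlap in controls, against 13.3% and 9.33% of all probes. In Lhx1epiCKO embryos 2 receptor probes were higher and 0 lower without overlap, against 10.6% and 7.37%. In that genotype 3 of the 16 member probes passed, against 1.27% of all probes tested. These were 1 higher in the anterior part, of Fgfr2, against 0.417%, and 2 lower, of Etv4 and Dusp6, against 0.851%. By the brightest probe 1 of 8 genes passed there, Etv4, and without posterior Lhx1epiCKO replicate 3 so did Fgfr2, making 2. Whether the regional differences of a gene differed between genotypes is the test of the genotype effects against each other, given with the genotype comparisons. Of the tested probes, 1 of Fgfr1, 2 of Fgfr2 and that of Fgfr4 were below background on every array of at least 1 group, so counts over receptor probes include signals that carry little information.

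**Figure D2:**
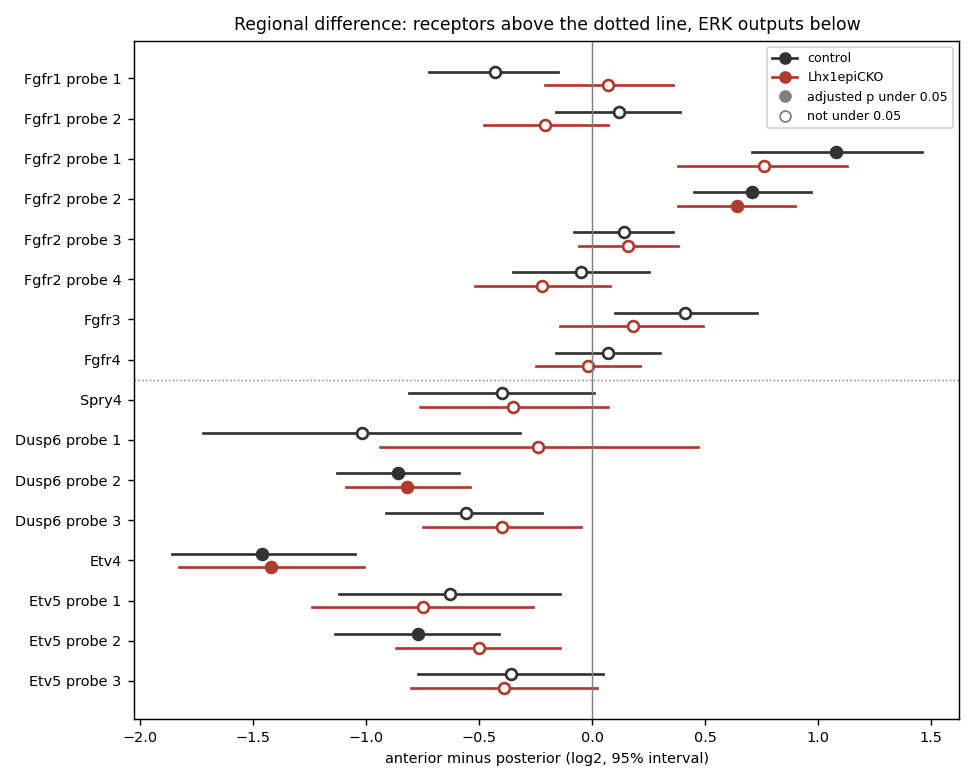
Anterior minus posterior difference (horizontal axis, log2, with 95% intervals) of the 16 tested probes (vertical axis) in control and Lhx1epiCKO embryos; filled points had an adjusted p under 0.05. All 8 ERK output probes lie left of 0 in both genotypes, with Etv4 at -1.46 and -1.42, and the brightest Fgfr2 probe lies right of 0 at 1.08 and 0.76.

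Markers of the tissues in the dissected parts moved with these differences. Primitive streak and nascent mesoderm markers were called lower in the anterior part in 9 of 12 genes in controls and in 8 of 12 in Lhx1epiCKO embryos, with medians of -2.72 and -1.65. Anterior neuroectoderm markers were called higher in 5 of 7 and 3 of 7 genes, with medians of 0.73 and 0.58. Hesx1 was detected on no posterior array and on no anterior Lhx1epiCKO array, and Sox1 on no anterior array. Extraembryonic mesoderm and allantois markers were called lower in 3 of 6 and 2 of 6 genes. Extraembryonic ectoderm and trophoblast markers (6 of 7 tested) summed to between 10.73 and 11.55 on anterior and between 12.59 and 13.26 on posterior control arrays. In Lhx1epiCKO embryos they summed to between 11.40 and 12.01 and between 12.77 and 13.17. In each genotype 1 of 6 genes was called lower in the anterior part. Most genes of the list went the other way, 4 of 6 in controls and 5 of 6 in Lhx1epiCKO embryos, with medians of 0.11 and 0.22. That list shares Cdx2 and Eomes with the streak list, and Elf5, which defines the tissue, was detected on no posterior array. The parts that tissue composition and level per cell play in the regional values of Fgfr2, Etv4, Dusp6 and Etv5 cannot be told apart in these samples.

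The second question is whether loss of epiblast Lhx1 altered these genes. In anterior samples none of the 16 member probes passed the limma test and 0 had an unadjusted p under 0.05, against 0.0704% of all probes called and 329 of 17041 with an unadjusted p under 0.05. Differences ran from -0.28 to 0.16, and no member probe had groups without overlap, where 12.2% of all probes did. For Etv4 the difference was 0.14 ± 0.19 with a 95% interval from -0.27 to 0.55, for the middle Dusp6 probe it was 0.02 ± 0.13 with an interval from -0.25 to 0.30, and for the brightest Fgfr2 probe it was -0.28 ± 0.17 with an interval from -0.65 to 0.10. A change within these intervals was not shown to be absent. This contrast and the control regional contrast share the anterior control arrays. Anterior neuroectoderm markers summed to between 11.42 and 11.64 on the anterior Lhx1epiCKO arrays, below all anterior controls, with 1 of 7 genes called, and their part in the Fgfr2 value was not tested.

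The anterior genotype differences of the ERK output probes were all between 0.00 and 0.14, with a median of 0.11, and those of the receptor probes had a median of -0.06. For the brightest probes this split rested on the array labelled anterior Lhx1epiCKO replicate 3. On it Etv4 read 8.72 against a mean of 8.11 on the other arrays of its group, the brightest Etv5 probe 9.36 against 8.77, the brightest Dusp6 probe 11.20 against 10.67 and Spry4 7.43 against 7.09. The dimmest Dusp6 and Etv5 probes were at their group's lowest instead, at 6.78 against 6.99 and at 6.90 against 7.07. All 8 receptor probes were at their group's lowest there, at 7.21 against 7.63 for Fgfr3 and 7.44 against 7.74 for the second Fgfr2 probe. Without this array the anterior genotype difference was -0.06 for Etv4, -0.08 for Etv5, -0.10 for Dusp6 and -0.11 for Spry4 on their brightest probes, while the dimmest probes stayed positive, at 0.19 for Dusp6 and 0.16 for Etv5. For the receptors it was 0.21 for Fgfr1, -0.18 for Fgfr2, 0.07 for Fgfr3 and 0.04 for Fgfr4. Primitive streak and nascent mesoderm markers summed to 13.30 on this array and to 12.38 and 12.62 on the other arrays of its group (log2). All of these lay above the anterior control arrays, which summed to between 11.92 and 12.16. Between genotypes in anterior samples, 10 of 12 genes were higher in Lhx1epiCKO embryos, with a median of 0.63 and 0 called. The part of these marker levels in the member values was not tested.

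**Figure D3:**
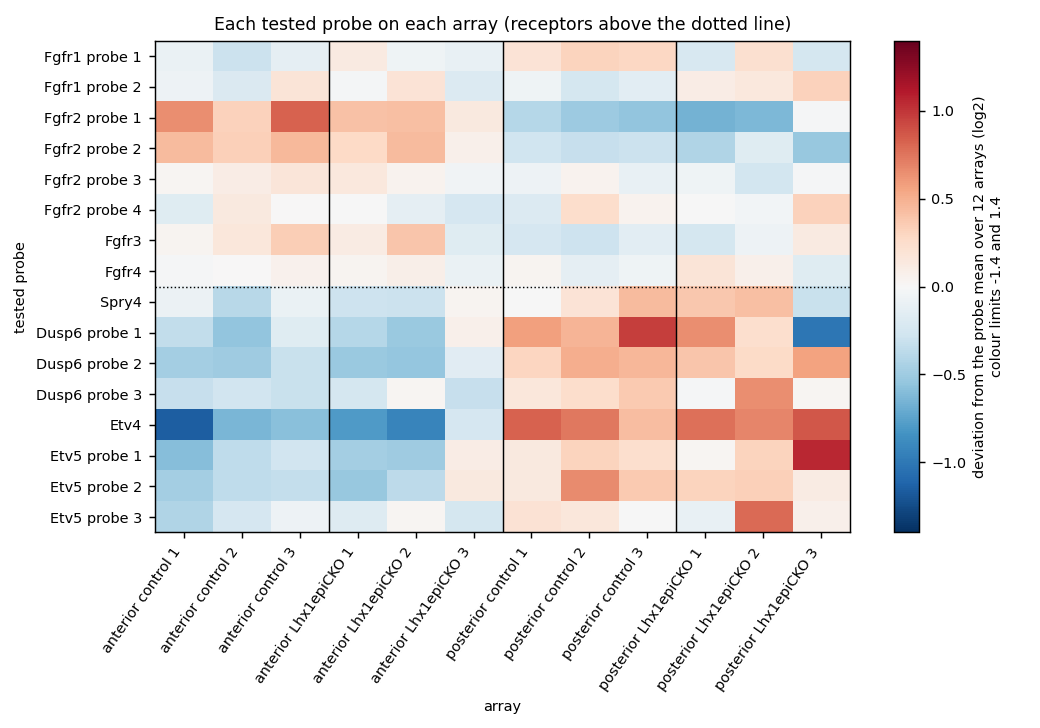
Deviation of each tested member probe (vertical axis) from its mean over the 12 arrays (horizontal axis), in log2 units by colour, with receptors above the dotted line. Anterior arrays are red for Fgfr2 probe 1 and blue for Etv4, the third anterior Lhx1epiCKO array is paler for both (0.13 and -0.24), and the third posterior Lhx1epiCKO array is blue for Dusp6 probe 1 and red for Etv5 probe 1.

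Taken array by array, the distance of Etv4 from its own mean over the 12 arrays, minus the same distance for the brightest Fgfr2 probe, lay between -1.79 and -0.96 on the anterior control arrays and between 0.98 and 1.25 on the posterior control arrays. On the Lhx1epiCKO arrays it was -1.20, -1.34 and -0.37 in the anterior part and 1.44, 1.30 and 0.89 in the posterior part. Every anterior array was below 0 and every posterior array above it. Etv4 and this Fgfr2 probe already had regional differences without overlap on these same arrays, so this split adds no support for them. The third anterior Lhx1epiCKO array was the nearest to 0.

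In posterior samples 0 of the 16 member probes passed, and 0% of all probes were called. In the same limma fit 3 member probes, of 2 genes, had an unadjusted p under 0.05, as did 1643 of the 17041 probes. The brighter Fgfr1 probe read 7.85, 7.97 and 7.95 on posterior control and 7.44, 7.89 and 7.41 on posterior Lhx1epiCKO arrays, a difference of -0.34 ± 0.13 (limma, adjusted p = 0.504). The dimmer Fgfr1 probe went the other way by 0.34 ± 0.13 (adjusted p = 0.504). It was detected on 0 of 3 posterior control and 3 of 3 posterior Lhx1epiCKO arrays, whose means were 6.66 and 7.01, and was at least 1.12-fold higher in the latter when the lowest detected signal stood for the control level. It was the only member probe with no overlap, against 9.33% of all probes, and the bound takes no account of sampling error. The 2 probes of Fgfr1 thus disagreed in direction.

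The third was the brightest Dusp6 probe, at -0.71 ± 0.32 (limma, adjusted p = 0.515). It was -0.23 without the array labelled posterior Lhx1epiCKO replicate 3, and the middle Dusp6 probe differed by -0.02 ± 0.13 with all arrays. Etv4 differed by 0.11 ± 0.19, the brightest Etv5 probe by 0.23 ± 0.23, Spry4 by -0.05 ± 0.19 and the brightest Fgfr2 probe by 0.05 ± 0.17, all with overlap. Without the array labelled posterior Lhx1epiCKO replicate 3 these were 0.06 for Etv4, -0.06 for Etv5, 0.18 for Spry4 and -0.16 for Fgfr2. On that array visceral endoderm markers summed to 14.22, below the 15.36 on both other arrays of its group, and the part of this in the member values was not tested.

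The difference between the anterior and the posterior genotype effect, which is also the difference between the regional effects of the genotypes, passed for 0 of 16 member probes and 0% of all probes. In that limma test 581 of 17041 probes had an unadjusted p under 0.05, among them 1 member probe. This was the brighter Fgfr1 probe, at 0.50 ± 0.19 (adjusted p = 0.981). The differences ran from -0.33 to 0.79, and the highest was on the brightest Dusp6 probe, at 0.79 ± 0.46 with a 95% interval from -0.21 to 1.78 (adjusted p = 0.981). For Dusp6 it was 0.30 without posterior Lhx1epiCKO replicate 3. It was 0.03 ± 0.27 for Etv4, 0.04 ± 0.18 for the middle Dusp6 probe and -0.33 ± 0.25 for the brightest Fgfr2 probe, with 95% intervals from -0.54 to 0.61, from -0.34 to 0.43 and from -0.86 to 0.20. The regional calls seen in controls and not in Lhx1epiCKO embryos, for the brightest Fgfr2 probe and for Etv5, were therefore not shown to differ between genotypes.

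**Figure D4:**
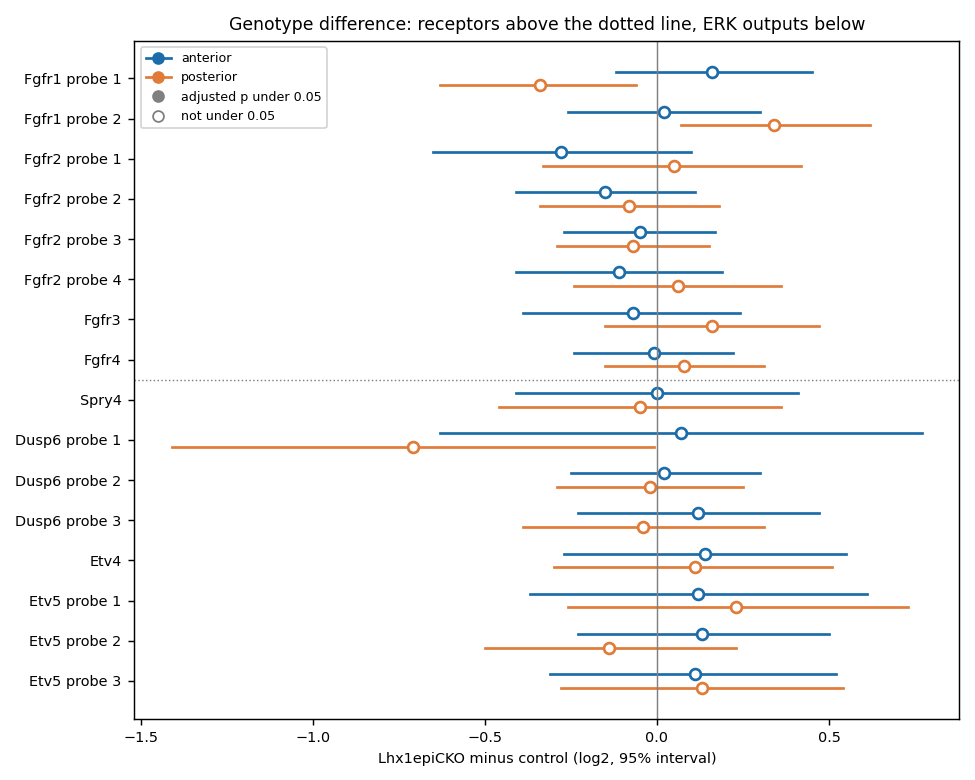
Lhx1epiCKO minus control difference (horizontal axis, log2, with 95% intervals) of the 16 tested probes (vertical axis) in anterior and posterior samples; every point is open because 0 probes had an adjusted p under 0.05. Anterior differences lie between -0.28 and 0.16, and the widest departure is Dusp6 probe 1 in posterior samples at -0.71.

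Replicate spread differed among the members. The within-group SD pooled over the 4 groups was 0.49 for the brightest Dusp6 probe, above that of 97.9% of tested probes, and 0.33 for the brightest Etv5 probe, against a median of 0.16 over all tested probes. Without posterior Lhx1epiCKO replicate 3 these were 0.26 for Dusp6, above 96% of probes, and 0.22 for Etv5, against a median of 0.14. With all arrays it was 0.26 for Etv4, 0.24 for the brightest Fgfr2 probe and 0.15 for the middle Dusp6 probe.

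The other genes of the pathway were taken from 5 lists of 98 genes, 76 of them tested, leaving out the members. In controls 7 of the 76 passed, 9.21% against 3.59% of all genes tested. The lists were chosen with earlier results of these data known, so such shares do not test the pathway for an excess of calls. Fgf17, Fgf8 and Fgf15, which encode ligands, were lower in the anterior part, with differences of -2.20, -1.85 and -1.73 (limma, adjusted p at most 3.26e-05), the same direction as Etv4 and Dusp6. With the probes of each gene averaged the Fgf17 difference was -1.28 and still passed. Egr1, an immediate early gene that ERK turns on, differed by -1.12 ± 0.16 (limma, adjusted p = 0.00121), and Il17rd, whose product Sef restrains FGF signalling, by -1.08 ± 0.17 (adjusted p = 0.00316). Both belong to the list of other feedback and output genes, where 2 of 19 tested genes were called. Of these 19 genes 7 had a positive and 12 a negative difference, with a median of -0.04, so the list as a whole did not differ between regions. Hs6st1, which encodes a heparan sulfate sulfotransferase, and Gpc4, a glypican gene, were higher in the anterior part by 0.65 and 0.60, the direction of Fgfr2 (limma, adjusted p = 0.0111 and 0.0195). They were the 2 called of 17 tested genes in the heparan sulfate and co-receptor list. In that list 7 genes had a positive and 10 a negative difference, with a median of -0.01. The Hs6st1 call was lost without anterior control replicate 1 or 3 (adjusted p up to 0.0598), and the Gpc4 call without anterior control replicate 1 or 2 or posterior control replicate 1 or 3 (adjusted p up to 0.112).

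In Lhx1epiCKO embryos Fgf17, Fgf8 and Fgf15 passed again, at -2.04, -1.31 and -1.20 (limma, adjusted p at most 0.00172), and they were 3.95% of the 76 against 1.52% of all genes. With averaged probes Fgf17 was at -1.12 and still passed. The Fgf15 call was lost in a fit of the 6 Lhx1epiCKO arrays alone (adjusted p = 0.0615). None of the 18 tested genes of the cascade from receptor adaptors to ERK passed in any of the 5 contrasts, with a regional median of 0.03 in controls, and neither did any of 13 other receptor tyrosine kinase genes, with a median of -0.10. In both genotype contrasts and in their difference 0 of the 76 passed, which does not show that they were unchanged. In anterior samples the Lhx1epiCKO minus control difference was 0.65 ± 0.14 for Fgf10, 0.53 ± 0.16 for Fgf15 and 0.50 ± 0.17 for Fgf8. For Fgf5 it was -0.73 ± 0.28 (limma, unadjusted p from 0.000666 to 0.0211 for these ligand genes). Of the 9 tested ligand genes 7 had a positive and 2 a negative difference there, with a median of 0.10. Lhx1 itself did not pass in that contrast (limma, adjusted p = 0.344). Fgf8 is also among the streak markers.

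**Figure D5:**
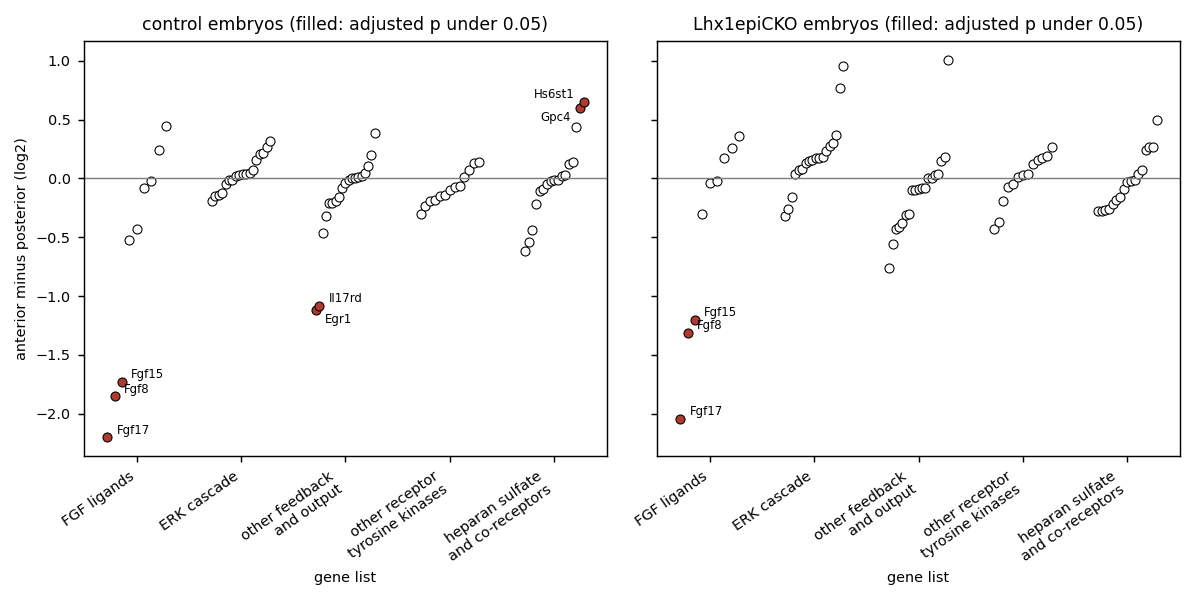
Anterior minus posterior difference (vertical axis, log2) of the 76 tested pathway genes in 5 lists (horizontal axis) in control embryos (left) and Lhx1epiCKO embryos (right), 1 point a gene; filled points had an adjusted p under 0.05. Fgf17, Fgf8 and Fgf15 are the lowest called points in both panels, and the points of the ERK cascade list are all open.

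For the 3 members whose group means spanned at least 1 log2 unit, the genes with the most similar pattern were found by the root mean square difference over the 12 arrays, after each gene was centred on its mean. Nearest to Etv4 were Irf1 at 0.18, Klf5 at 0.19 and Sp5 at 0.21 (log2). Nearest to the brightest Fgfr2 probe were Jakmip2 at 0.17, Rapgef5 at 0.18 and Chrna4 at 0.19. Nearest to the brightest Dusp6 probe were Aldh2 at 0.25, Nuak1 at 0.27 and Limch1 at 0.28, and this pattern includes the low value on posterior Lhx1epiCKO replicate 3.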

How the data were processed

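The deposited table holds the authors' normalized log2 signals, and a detection p-value beside each signal. GenomeStudio and limma are named, per the submitters' processing notes, without versions. The background correction and normalization are not given in the labels or headers, and a further table of the same log2 values deposited by the authors differed by at most 5.0e-09. Tested were the 17041 probes, of 11470 genes, that 3 or more of the 12 arrays detected at a p under 0.05. All arrays were fitted with limma 3.58.1 in R 4.3.3, with 1 mean per group and no covariate, and p-values were two-sided and Benjamini-Hochberg adjusted over all tested probes. A gene was represented by its brightest tested probe, and other probes are given beside it. The text names all members, Lhx1, called pathway genes and the 3 nearest genes of members spanning at least 1 log2 unit. Members and lists were chosen with earlier results of these data known. The fit was also run on simulated data that gave a probe the same spread on every array, unlike these arrays. The labels state no pairing of replicate numbers, so no block was used in the main fit. Alternatives covered array weights, intensity trend, filters, normalization, an offset, probe averaging and left-out arrays. Promoters are from RefSeq, GRCm38.p6. Gene coordinates are not given, since no build is named for the array's probes.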

Additional observations from a re-analysis of the deposited data

How the results depend on the processing

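Over 23 alternative settings, 1736 of 1764 member probe differences kept their call and, where called, their direction, 9 lost a call, 19 gained one and 0 reversed, and 81 uncalled differences changed sign. Most of the 1764 were not called in the main fit and stayed uncalled, so the 9 losses come from a much smaller number of called differences. Genes called on the brightest probe between control regions numbered 2, and 4 with array weights, 5 with only the compared arrays fitted, 4 with the probes of each gene averaged and 2 to 5 with single arrays left out, the 5 without posterior Lhx1epiCKO replicate 3. Between Lhx1epiCKO regions they numbered 1, and 2 with array weights, 2 without both doubted posterior arrays and 1 to 2 with single arrays left out. Genes called there on any probe numbered 3, and 1 with only the compared arrays and 1 with probes averaged. In the anterior and posterior genotype contrasts and their difference the limma count was 0 for the members under every setting run. Etv4 passed in both genotypes and the brightest Fgfr2 probe in controls under every setting, but averaging the Fgfr2 probes reduced its control difference from 1.08 to 0.47.

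Counts over all probes varied with the setting too. They ran from 2 to 246 for the anterior genotype contrast (12 as reported), from 0 to 4 in the posterior one (0), from 0 to 3 for their difference (0), from 276 to 1013 for the control regions (513) and from 64 to 425 for the Lhx1epiCKO regions (216). The correlation of deviations between arrays of the same number ran from -0.04 to 0.25, and between arrays of different numbers from -0.18 to 0.08. The labels state no pairing, and these values do not settle whether parts of the same embryos share a number. With the replicate number as a block the members called were 2 between control regions and 1 between Lhx1epiCKO regions, as without it, and all probes called were 459 and 208. Signals near background limit what can be said of Fgfr4, Spry1, Spry2 and the dimmer receptor probes.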
